A study of Mus musculus with 6 samples.

Results

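The genes described here are 10 genes of the major histocompatibility complex (MHC) class I antigen presentation pathway, out of 23997 gene symbols with a value in each library. They are the class I heavy chains H2-K1 and H2-D1, the light chain B2m, the peptide transporter subunits Tap1 and Tap2, tapasin (Tapbp), the immunoproteasome subunits Psmb8, Psmb9 and Psmb10, and the class I transactivator Nlrc5. They were selected with their values in the comparison of HrasG12V and WT muscle already known, so the differences between genotypes below are descriptions of a selected set and carry no test of their own. Gene symbols alone identified them, and all 10 passed the filter of a mean of at least 0.5 FPKM over the 6 libraries, as did 13359 of all symbols. Nlrc5, with a WT mean of 0.137 FPKM, passed only through its levels in HrasG12V mice. FPKM counts mapped fragments relative to transcript length and library size, a level that can be compared between genes because it is per length.

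RNA of the gastrocnemius, a large muscle of the calf, was sequenced from 6 mice aged 21 days, with 1 library per mouse. The HrasG12V group held mice 2276, 2278 and 2279 (Caggs-Cre+/HrasG12V/+), a model of Costello syndrome in which Cre under a broadly active CAG promoter replaces the wild-type copy of Hras on 1 allele with HrasG12V, which is then expressed from its own promoter. The WT group held littermates 2277, 2280 and 2281 (Caggs-Cre-/HrasflG12V/+), which also carried the floxed allele but no Cre, so the presence of Cre and the expression of HrasG12V cannot be told apart. The mice were of a mixed SWR/J, 129S1/SvImJ and C57BL/6J background, and their MHC haplotypes, sex and litter are stated in none of the sources used here.

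Class I molecules display peptides from inside the cell to CD8+ T cells. Peptides cut by the proteasome are pumped into the endoplasmic reticulum by TAP, loaded onto the heavy chain and B2m with the help of tapasin, and carried to the cell surface. Interferon-gamma switches these genes on together, in part through Nlrc5, and replaces the 3 catalytic subunits of the constitutive proteasome by those of the immunoproteasome. Mature skeletal muscle fibres are known for little class I on their surface, whereas lymphocytes and antigen presenting cells carry much.

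The locations of the genes on GRCm38 came from the GENCODE vM21 annotation. Inside the MHC on chromosome 17 lie 7 of the 10, in the order Tapbp (chr17:33915899-33929292, plus strand), H2-K1 (chr17:33996017-34000347, minus strand), Psmb9 (chr17:34181987-34187764, minus), Tap1 (chr17:34187553-34197225, plus), Psmb8 (chr17:34197721-34201454, plus), Tap2 (chr17:34203527-34216321, plus) and H2-D1 (chr17:35262730-35267499, plus). Psmb9, Tap1, Psmb8 and Tap2 stand side by side within 34.3 kb, and H2-D1 lies 1262 kb beyond H2-K1. The other 3 are on other chromosomes, B2m at chr2:122147686-122153083 (plus), Psmb10 at chr8:105935735-105938444 (minus) and Nlrc5 at chr8:94434356-94527272 (plus).

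RefSeq promoter windows (GRCm38.p6, from 250 bases before to 50 bases after a start site) were matched by symbol for 8 of the 10 genes, and there was no entry for Tap2 and Nlrc5. The windows of H2-K1, H2-D1 and B2m were the ones that held TGACG and ATTGG with 20 bases between them, which are the core letters of the X2 and Y boxes of the class I promoter module. These stretches are shown because they hold letters that genes on different chromosomes share. Each is written 5′ to 3′ on the strand of the gene, and the capitals mark, in the H2 genes, a pair of overlapping κB matches, an AANNGAAA match (on the opposite strand), TGACG and ATTGG, and in B2m an AANNGAAA match, a κB match (on the opposite strand), TGACG and ATTGG. They lie at chr17:34000359-34000458 (minus strand), chr17:35262923-35263022 (plus) and chr2:122147550-122147638 (plus).
H2-K1: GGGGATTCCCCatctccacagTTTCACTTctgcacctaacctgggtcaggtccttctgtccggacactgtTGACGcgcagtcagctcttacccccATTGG
H2-D1: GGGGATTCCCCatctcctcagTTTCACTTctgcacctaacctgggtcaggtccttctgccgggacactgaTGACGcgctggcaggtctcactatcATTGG
B2m: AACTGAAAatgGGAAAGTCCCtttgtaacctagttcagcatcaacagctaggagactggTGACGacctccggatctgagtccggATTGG

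The H2-K1 and H2-D1 stretches were identical at 89 of 100 positions without a gap. The first κB match began 70 bases before TGACG in both H2 genes and 48 bases before it in B2m. Among 32851 promoter windows of the same length, 31 (0.0944%) held TGACG and ATTGG at this spacing on either strand, 4.51% held a κB match, 23.9% held AANNGAAA, 20.8% held TGACG and 37.4% held ATTGG. The spacing of 20 bases was chosen after the sequences had been seen, the AANNGAAA and κB matches did not overlap TGACG or ATTGG in the stretches above, and a match is a description of letters and no evidence of binding.

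Tap1 and Psmb9 are read away from each other from RefSeq start sites 226 bases apart, and their promoter windows overlap by 275 bases. In GENCODE vM21 the spans given above for these genes overlap, so the distance holds for the RefSeq start sites alone. The stretch between the RefSeq start sites is shown because it lies in the windows of both genes (chr17:34187331-34187555, written on the strand of Tap1). The capitals mark ATTGG on the strand of Psmb9 and TGACG on the strand of Tap1, and no κB or AANNGAAA match was found in either window.
Tap1 and Psmb9: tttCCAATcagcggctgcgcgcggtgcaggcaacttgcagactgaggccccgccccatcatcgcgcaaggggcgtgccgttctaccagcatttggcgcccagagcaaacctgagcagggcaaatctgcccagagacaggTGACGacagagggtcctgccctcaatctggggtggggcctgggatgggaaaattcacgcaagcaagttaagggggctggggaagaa

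The window of Tapbp held ATTGG in 2 places, and those of Psmb8 and Psmb10 held neither TGACG nor ATTGG. None of these 3 windows held the pair, a κB match or AANNGAAA. The window of Psmb8 held 1 match to TTCNNNGAA, the letters of a gamma-activated site, as did 8.30% of all windows.

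Before the levels are given, 2 of the 3 HrasG12V libraries must be set apart. Genes that mark B cells, T cells and lymph node stroma were far higher in mice 2278 and 2279 than in the other 4. The summed FPKM of 10 B cell markers was 1.0 to 1.64 in the WT mice, 1.73 in mouse 2276, 107 in mouse 2278 and 85.6 in mouse 2279. The summed FPKM of 11 T cell markers was 3.46 to 4.21 in the WT mice and 2.83, 45.4 and 60.4 in the HrasG12V mice in the same order. Of these markers Ms4a1, Pou2af1 and Cd8a were listed at 0 in mouse 2276 and Pax5, Cd8b1 and Cd5 in WT mouse 2280, and none was at 0 in mice 2278 and 2279. For 7 lymph node stroma markers the sum was 2.65 to 7.93 in the WT mice and 6.97, 253 and 380 in the HrasG12V mice, led by Glycam1, a mucin of high endothelial venules. Natural killer cell and neutrophil markers were also highest in these 2 mice, while the macrophage sum was 61.3 to 74.9 in the WT mice and 87.7, 121 and 67.8 in the HrasG12V mice. The part of these cells in the levels below was not tested, and in bulk tissue more cells of a type cannot be told apart from more RNA per cell.

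The most abundant of 12 muscle fibre markers was Mylpf, a fast myosin light chain, at 15858 to 22330 FPKM in the WT mice and 36114, 14985 and 10760 FPKM in mice 2276, 2278 and 2279. Pvalb, Tnni2, Mb, Myh1 and Myh2 were also highest in mouse 2276, but Actn3 and Tnnt3 were not. Tnnt3 was at 8444 to 10419 FPKM in the WT mice and at 0, 8592 and 6893 FPKM in the HrasG12V mice, so no 1 gene stands for the muscle. Some genes of muscle fibres, among them Acta1, Myh4 and Atp2a1, were listed at 0 in all 6 libraries, so a listed 0 is not proof of absence in these values. Others were at 0 in part of the libraries. Ckm was at 7165 FPKM in mouse 2278 and at 0 in every other mouse, and Myh1 was at 0 in WT mice 2277 and 2280 and at 903 FPKM in WT mouse 2281. Such values enter the sums of FPKM, and so the scaling to equal totals. None of the 10 genes was listed at 0 in any library. The FPKM of mouse 2276 summed to 814013, against 491045 to 547122 in the WT mice and 429351 and 413020 in mice 2278 and 2279, so its levels relative to the WT mice depend on the scaling. The FPKM of Hras does not separate the alleles and so does not check the genotypes. It was 36.8, 36.0 and 51.8 in WT mice 2277, 2280 and 2281 and 58.8, 28.9 and 16 in HrasG12V mice 2276, 2278 and 2279.

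All 10 class I pathway genes had a higher mean in HrasG12V than in WT muscle, by 1.12-fold (Tapbp) to 9.0-fold (Nlrc5) in mean FPKM. On the scale of log2(FPKM + 0.1), where the added value shrinks differences of weakly expressed genes, their median difference was 1.12, against -0.03 over all 13359 genes. An unadjusted limma p below 0.05 with a higher level was found for 8 of the 10, the exceptions being Tapbp and Nlrc5, and 5.18% of all genes were called in this direction, 4.99% in the other and 10.2% in either. After Benjamini-Hochberg adjustment over all genes none of the 10 was past 0.05, as 0.0599% of all genes (8) were. In 7 of the 10 every HrasG12V mouse was above every WT mouse, which held for 8.11% of all genes. Since the genes were chosen on this comparison, these shares are given as a description and nothing is read from them. Without WT mouse 2281 the count of 8 became 5, and with all libraries at 1 total it became 3.

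**Figure D1:**
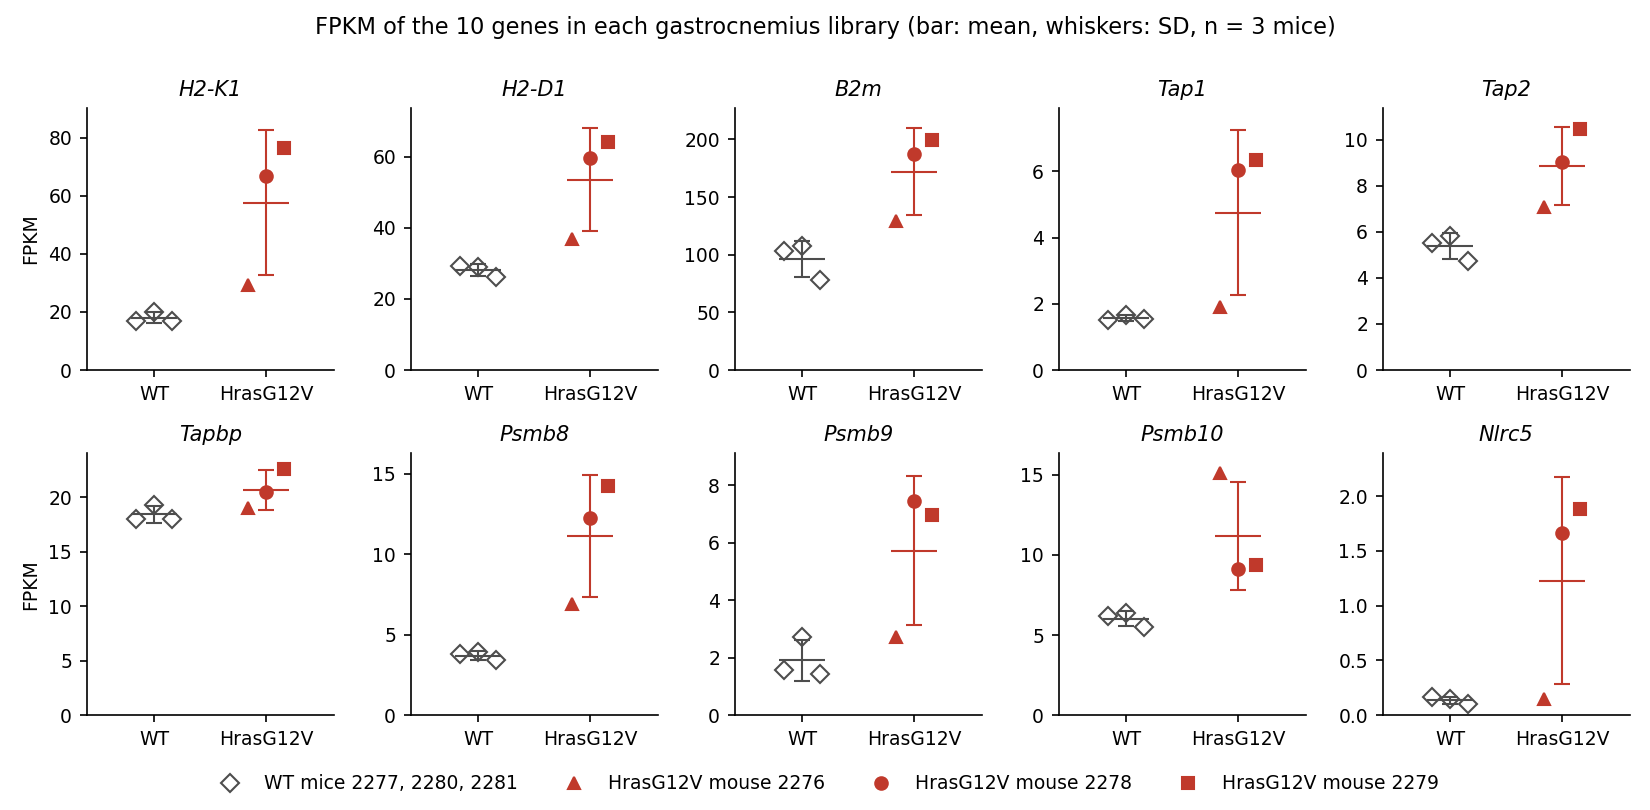
FPKM of the 10 genes in each of the 6 gastrocnemius libraries, with WT mice as open diamonds and HrasG12V mice as filled symbols, 1 panel per gene with its own axis from 0; bars are means and whiskers SD of 3 mice. Mouse 2276 (triangle) is the lowest HrasG12V mouse in every panel but Psmb10, where it is the highest with 15.1 FPKM, though not at equal library totals.

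The levels in WT muscle spanned a wide range. B2m was the highest with a mean of 96.5 ± 15.8 FPKM (SD, n = 3), followed by H2-D1 with 28.1 ± 1.70. Tapbp (18.4 ± 0.755) and H2-K1 (18.0 ± 1.87) came next and overlapped between mice. Psmb10 (6.02 ± 0.457) and Tap2 (5.37 ± 0.557) also overlapped, and Psmb8 lay below them at 3.71 ± 0.266. Psmb9 (1.91 ± 0.713) and Tap1 (1.57 ± 0.0809) could not be ordered beyond their spread, and Nlrc5 was the lowest at 0.137 ± 0.0325. In HrasG12V muscle the order of the means differed at a few places. H2-K1 (57.6 ± 25.0) was above H2-D1 (53.5 ± 14.5) with overlapping mice, and the means of Psmb8 (11.1 ± 3.79) and Psmb10 (11.2 ± 3.37) were nearly level.

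Among the heavy chains, H2-K1 had 16.9, 20.1 and 16.8 FPKM in WT mice 2277, 2280 and 2281 and 29.3, 66.9 and 76.6 FPKM in HrasG12V mice 2276, 2278 and 2279. The groups did not overlap, and the 3 HrasG12V mice were 1.63, 3.73 and 4.27 times the WT mean (log2 difference of the groups 1.57, SE 0.37). H2-D1, the other classical heavy chain, had 29.3, 28.9 and 26.1 FPKM in the WT mice and 37.0, 59.6 and 64.1 FPKM in the HrasG12V mice, in the same order. Its groups did not overlap either, and its difference was the smaller one (0.89, SE 0.25). The ratio of H2-K1 to H2-D1 was 0.640 ± 0.0596 (SD, n = 3) in WT and 1.04 ± 0.215 in HrasG12V muscle, with 0.792 in mouse 2276, 1.12 in mouse 2278 and 1.20 in mouse 2279. Every HrasG12V mouse was above every WT mouse in this ratio, of which the highest was 0.697.

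The 2 heavy chains share sequence with each other and with other class I genes. Of all stretches of 50 bases in the transcript of H2-D1, 14.3% also occurred in another gene, chiefly H2-Q1, H2-Q7 and H2-Q6, and 8.79% of those of H2-K1 did so, chiefly in H2-D1. How reads from such stretches were divided is stated nowhere in the sources used here, so the levels of both genes are uncertain to that extent. For B2m, Psmb8, Psmb9, Psmb10 and Nlrc5 no such stretch was shared, and for Tap1, Tap2 and Tapbp the share was 0.861%, 0.737% and 2.00%.

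B2m, the light chain of all class I molecules, had 103, 108 and 78.4 FPKM in the WT mice and 129, 187 and 200 FPKM in mice 2276, 2278 and 2279. The groups did not overlap, the mean was 96.5 ± 15.8 FPKM in WT and 172 ± 37.6 FPKM in HrasG12V muscle, and the log2 difference was 0.82 (SE 0.27). The sum of H2-K1 and H2-D1 relative to B2m was 0.483 ± 0.0562 in WT and 0.630 ± 0.104 in HrasG12V muscle. Mouse 2276, at 0.512, lay inside the WT range of 0.447 to 0.548, and mice 2278 and 2279 lay above it at 0.675 and 0.704.

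The 2 subunits of the TAP transporter differed in size of change. Tap1 had 1.51, 1.66 and 1.54 FPKM in the WT mice and 1.89, 6.03 and 6.35 FPKM in mice 2276, 2278 and 2279, so mouse 2276 stood just above the WT mice and the other 2 were at 3.84 and 4.04 times the WT mean. Its log2 difference was 1.36 (SE 0.45). Tap2 started at a higher level, with 5.53, 5.83 and 4.75 FPKM in the WT mice, and had 7.06, 9.01 and 10.4 FPKM in the HrasG12V mice (log2 difference 0.70, SE 0.19). In neither gene did the groups overlap. The Tap1 level was below the Tap2 level in all 6 libraries.

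Tapasin, which bridges TAP and the waiting class I molecule, differed least. Tapbp had 18.0, 19.3 and 18.0 FPKM in the WT mice and 19.0, 20.5 and 22.6 FPKM in mice 2276, 2278 and 2279. WT mouse 2280 was above mouse 2276, and the log2 difference of 0.16 was close to its SE of 0.15. Tapbp lies inside the MHC, 66.7 kb before H2-K1.

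The 3 immunoproteasome subunits did not share 1 pattern. Psmb8, whose product takes the place of that of Psmb5, had 3.80, 3.91 and 3.41 FPKM in the WT mice and 6.91, 12.3 and 14.2 FPKM in mice 2276, 2278 and 2279. Its groups did not overlap, and its log2 difference of 1.5 had an SE of 0.28. Psmb9, the counterpart of Psmb6, had 1.57, 2.73 and 1.43 FPKM in the WT mice and 2.73, 7.45 and 6.97 FPKM in the HrasG12V mice (1.46, SE 0.44). WT mouse 2280 and mouse 2276 were at the same level to 3 digits, so the groups met, although mice 2278 and 2279 stood apart from all others.

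Psmb10, the counterpart of Psmb7, lies on chromosome 8 and had 6.19, 6.36 and 5.50 FPKM in the WT mice. In mice 2276, 2278 and 2279 it had 15.1, 9.10 and 9.38 FPKM, 2.51, 1.51 and 1.56 times the WT mean (log2 difference 0.85, SE 0.23). It was the only one of the 10 genes with its highest level in mouse 2276, which did not hold at equal library totals, where mice 2278 and 2279 (0.87 and 0.97 above the WT mean) were above mouse 2276 (0.67). Over the 6 libraries its log2 level had a Pearson r of 0.51 with the mean z-score of the other 9 genes, whereas r was 0.907 (Tapbp) to 0.993 (H2-K1) for each of the others. These r describe 6 libraries that fall into a few clusters and were not tested.

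Constitutive subunits gave the background to these values. The 14 genes of the constitutive core listed for this comparison had a median difference from the WT mean of 0.87 in mouse 2276, -0.23 in mouse 2278 and -0.12 in mouse 2279 on the log2 scale. None of the 14 had an unadjusted limma p below 0.05, beside 10.2% of all genes in either direction, and nothing is read from so small a count. The highest group differences were those of Psma7 (0.37, SE 0.33) and Psma4 (0.30, SE 0.30), and the lowest those of Psma3 (-0.06, SE 0.26) and Psma1 (-0.01, SE 0.28). Psmb5 was at 130, 124 and 130 FPKM in the WT mice and 272, 95.5 and 106 FPKM in mice 2276, 2278 and 2279. Psmb6 and Psmb7 had the same order, with 266 and 402 FPKM in mouse 2276 and 96.6 to 208 FPKM in the other 2 HrasG12V mice. In the FPKM as deposited mouse 2276 had the highest level of each constitutive subunit with a named partner, and of Psmb10. For Psmb5, 57.1% of the stretches of 50 bases also occurred elsewhere, mainly in Gm3375.

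Set against their constitutive partners, a ratio that the scaling of a library does not touch, the immunoproteasome subunits separated the HrasG12V mice from each other. The ratio of Psmb8 to Psmb5 was 0.0290 ± 0.00274 (SD, n = 3) in WT mice, 0.0254 in mouse 2276, 0.129 in mouse 2278 and 0.134 in mouse 2279. For Psmb9 to Psmb6 it was 0.0154 ± 0.00650 in WT mice and 0.0103, 0.0772 and 0.0675 in the HrasG12V mice. Mouse 2276 was below every WT mouse in both ratios. For Psmb10 to Psmb7 the ratio was 0.0260 ± 0.00286 in WT mice and 0.0375, 0.0489 and 0.0451 in the HrasG12V mice, all above the highest WT mouse at 0.0285. The group ratios of 3.30 for Psmb8 to Psmb5 and 3.35 for Psmb9 to Psmb6 therefore became 0.876 and 0.665 with mouse 2276 as the sole HrasG12V mouse, and that of Psmb10 to Psmb7 went from 1.68 to 1.44.

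**Figure D2:**
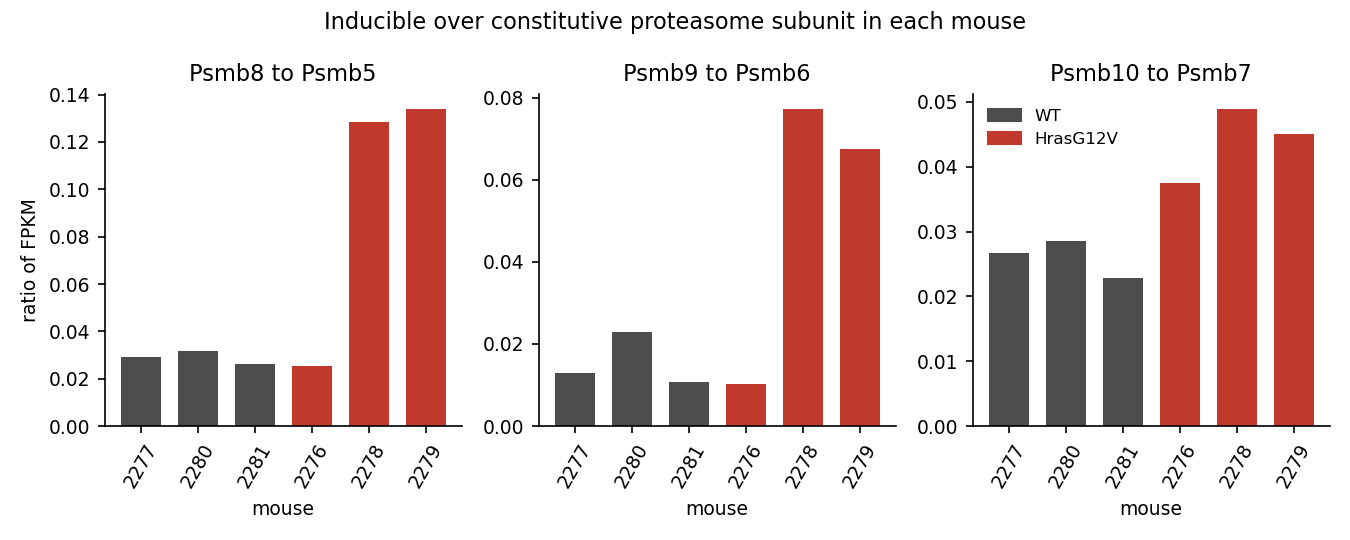
Ratio of FPKM of an immunoproteasome subunit to its constitutive partner in each mouse, 1 bar per mouse, WT in grey and HrasG12V in red, each axis from 0. Psmb8 to Psmb5 and Psmb9 to Psmb6 are 4.38 to 5.0 times the WT mean in mice 2278 and 2279 and below it in mouse 2276, while Psmb10 to Psmb7 is above the WT mice in all 3.

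Nlrc5, which binds class I promoters as part of a larger complex, had 0.164, 0.145 and 0.101 FPKM in the WT mice. It had 0.146 FPKM in mouse 2276, inside the WT range, and 1.66 and 1.88 FPKM in mice 2278 and 2279. The log2 difference of 2.01 was the largest of the 10 and had the largest SE (0.89), since 1 mouse stood with the WT mice and the other 2 were 12.2 and 13.8 times the WT mean.

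Genes inside the MHC were then set beside those on other chromosomes. The median log2 difference was 1.36 for the 7 genes inside and 0.85 for B2m, Psmb10 and Nlrc5. An unadjusted limma p below 0.05 was found in 6 of the 7 and in 2 of the 3, and the groups did not overlap in 5 of the 7 and in 2 of the 3, beside 5.18% of all genes called higher and 8.11% with every HrasG12V mouse above every WT mouse. Both sets held genes of small and of large difference, from Tapbp (0.16) to H2-K1 (1.57) inside and from B2m (0.82) to Nlrc5 (2.01) outside. The order of the 3 HrasG12V mice was the same in both sets. Relative to the WT mean the median of the 7 was 0.40 in mouse 2276, 1.70 in mouse 2278 and 1.87 in mouse 2279, and that of the 3 was 0.44, 0.97 and 1.06. With 7 genes against 3, chosen with their values known, the difference between the sets was not tested.

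**Figure D3:**
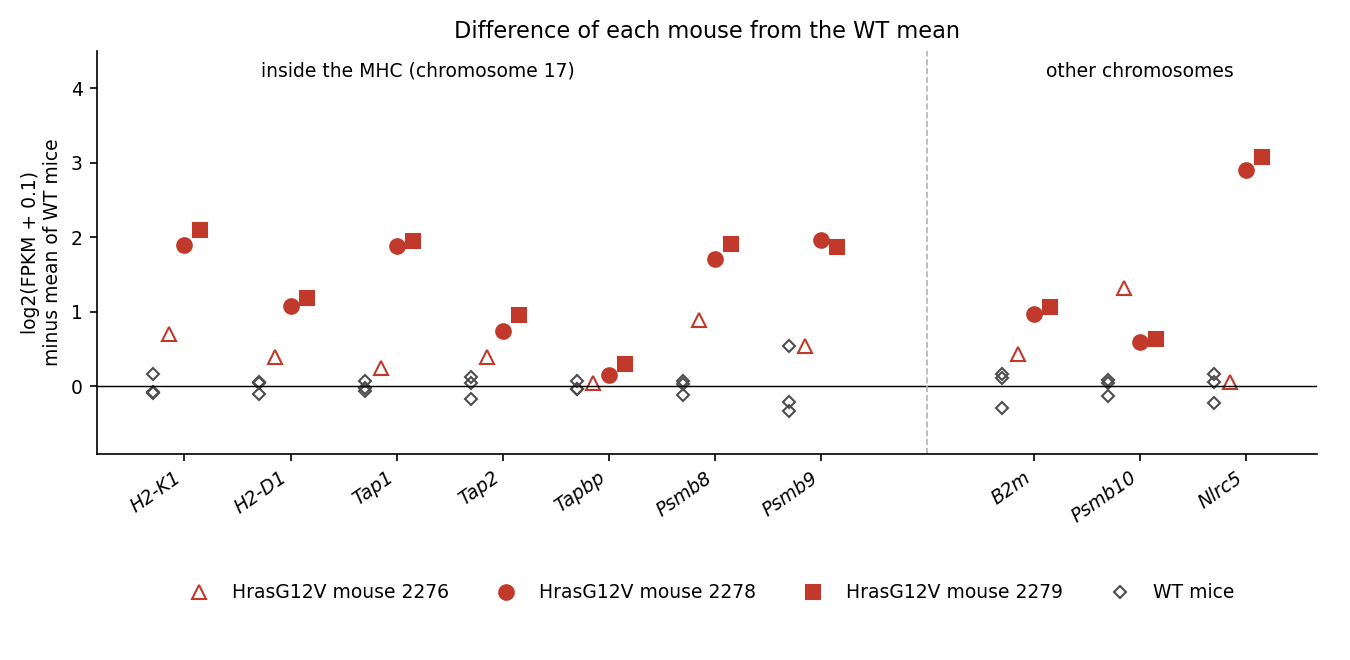
Difference of each mouse from the WT mean on the log2(FPKM + 0.1) scale for the 7 genes inside the MHC and the 3 on other chromosomes; triangles, circles and squares are HrasG12V mice 2276, 2278 and 2279, and small diamonds are the 3 WT mice. Mice 2278 and 2279 lie above mouse 2276 in every gene but Psmb10, where they lie above it only at equal library totals.

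Across the 10 genes the median difference from the WT mean was 0.42 in mouse 2276, 1.39 in mouse 2278 and 1.53 in mouse 2279, while the median over all genes was 0.04, -0.08 and -0.04. Mouse 2276 was above every WT mouse in 7 of the 10, namely H2-K1, H2-D1, B2m, Tap1, Tap2, Psmb8 and Psmb10, as it was for 43.1% of all genes tested. The mean z-score of the 10 genes over the 6 libraries was -0.99 to -0.53 in the WT mice, 0.03 in mouse 2276, 0.99 in mouse 2278 and 1.25 in mouse 2279. The mean z-score of 21 B and T cell markers was -0.66 to -0.58 in the WT mice and -0.68, 1.25 and 1.29 in the HrasG12V mice. In the FPKM as deposited mouse 2276 thus lay between the WT mice and the other HrasG12V mice in the class I genes.

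Relative to the WT mice, this place of mouse 2276 did not hold with all libraries at the same total FPKM. The median of the 10 genes relative to the WT mean was then -0.22 in mouse 2276, 1.67 in mouse 2278 and 1.86 in mouse 2279, beside -0.57, 0.19 and 0.28 over all genes. In mouse 2276 the median of the 10 was thus above that over all genes at both scalings (0.42 against 0.04 as deposited). Mouse 2276 was above every WT mouse in 2 of the 10 genes in place of 7 (13.8% of all genes in place of 43.1%), Psmb8 (0.25 above the WT mean) and Psmb10 (0.67), while H2-K1 was at 0.06 and H2-D1 at -0.25. In mice 2278 and 2279 all 10 were above every WT mouse at the same total, as were 54.8% and 62.5% of all genes.

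**Figure D4:**
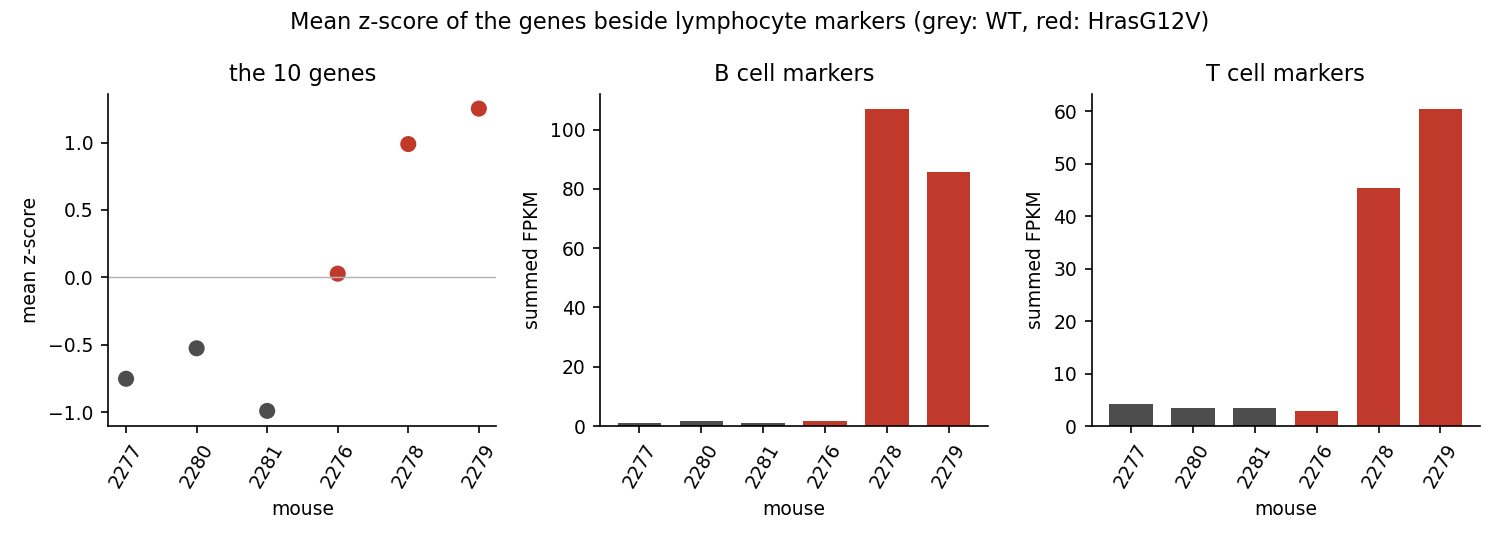
Left, mean z-score of the 10 genes in each mouse; middle and right, summed FPKM of 10 B cell and 11 T cell markers, with WT mice in grey and HrasG12V mice in red. In the FPKM as deposited the class I genes are lowest in the WT mice, intermediate in mouse 2276 (0.03) and highest in mice 2278 and 2279. At equal totals the median of the 10 in mouse 2276 is below the WT mean, though above the median over all genes. The lymphocyte sums of mouse 2276 (1.73 and 2.83) are like those of the WT mice.

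Without mice 2278 and 2279 the median difference of the 10 genes was 0.42, and 4 of the 10 had an unadjusted limma p below 0.05 (H2-K1, H2-D1, Psmb8 and Psmb10). In that fit mouse 2276 stood alone and was assumed to vary like the WT mice, and 6312 of all genes (47.2%) were past the same p. With the lymphocyte marker z-score as a covariate, which is nearly a code for mice 2278 and 2279, the median was 0.43 and the count was again 4, beside 40.4% of all genes past the same p. Without mouse 2276 the median was 1.47 and 9 of the 10 had an adjusted limma p below 0.05, as did 1291 of the 13359 genes (9.66%). All 10 differences were above 0 in each of these fits.

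The region around the 7 MHC genes was described over an interval from Daxx to H2-M2 (chr17:33909414-37483552), which held 196 other symbols, 114 of them with a mean FPKM of at least 0.5. Of these, 19 had an unadjusted limma p below 0.05 and were higher, and 2 were lower, beside 5.18% and 4.99% of all genes, with a median log2 difference of 0.28. The 19 became 8 on rescaling to the same total FPKM, 11 without moderation, and 7 to 38 with 1 mouse left out (7 without WT mouse 2281 or mouse 2279, 8 without WT mouse 2277 or 2280, 10 without mouse 2278 and 38 without mouse 2276). The 19 tested genes that belong to the class I, class II and loading lists had 7 higher calls, none lower, and a median of 1.73. The other 95 had 12 higher and 2 lower calls and a median of 0.19. Of the 19, H2-Q5, H2-Q6, H2-Q7, H2-T10, H2-M2, H2-Oa, H2-Ob and H2-DMb2 had a WT mean below 0.5 FPKM. They passed the filter only through HrasG12V mice, so the calls and median of the 19 are partly set by the filter, and nothing is read from them. In the 45 tested genes of the 3 Mb on either side, 4 were higher and 3 lower (median 0.05), and on chromosome 17 outside the interval 28 of 545 were higher and 35 lower (median -0.01).

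The mice differed in this region too. For the antigen presentation genes of the interval the median difference from the WT mean was -0.09 in mouse 2276, 2.75 in mouse 2278 and 2.34 in mouse 2279, and for the other genes it was 0.44, 0.00 and 0.14. Since part of the antigen presentation genes passed the filter only through HrasG12V mice, their medians in mice 2278 and 2279 are partly set by the filter. Among those other genes Wdr46 (0.52, SE 0.13) and the tubulin gene Tubb5 (0.76, SE 0.20) were higher in every HrasG12V mouse than in every WT mouse, and the endothelial receptor gene Notch4 was lower (-0.49, SE 0.15). Ltb, a lymphotoxin gene of lymphocytes, had 0.0970 to 0.298 FPKM in the WT mice, 0.269 in mouse 2276 and 11.2 and 14.3 in mice 2278 and 2279. These 4 genes were singled out after their values were seen. Col11a2, a cartilage collagen, had the lowest difference among the called genes of the interval, with 10.7, 24.3 and 15.3 FPKM in the WT mice and 3.22, 7.94 and 4.45 FPKM in the HrasG12V mice (-1.69, SE 0.41, limma, adjusted p = 0.38).

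**Figure D5:**
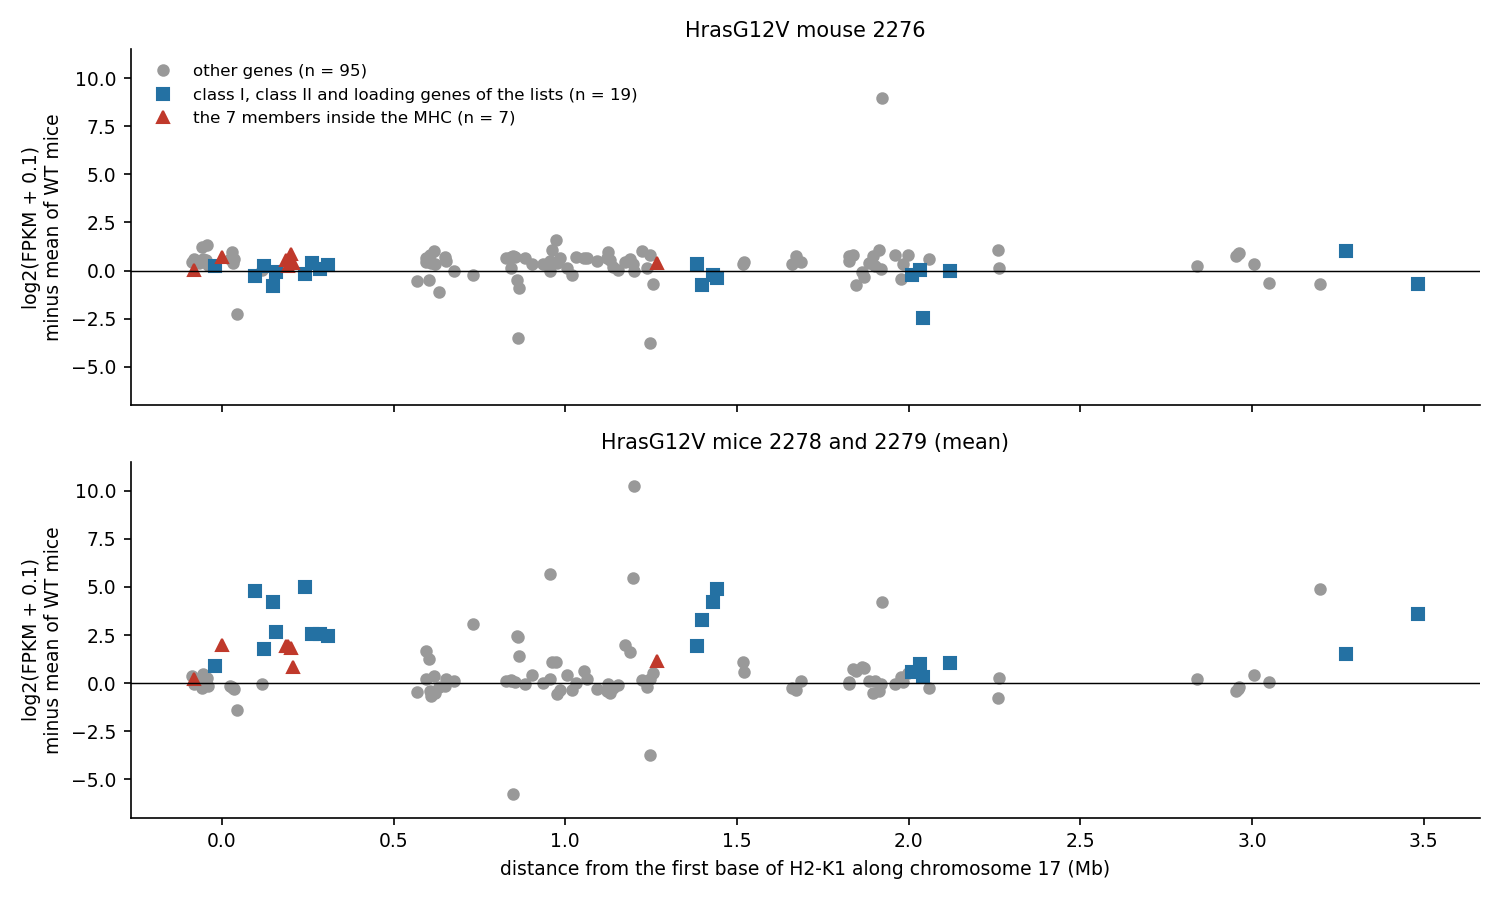
Difference from the WT mean on the log2(FPKM + 0.1) scale for tested genes of the interval from Daxx to H2-M2, in mouse 2276 (top) and as the mean of mice 2278 and 2279 (bottom). Distance runs along chromosome 17 from the base of H2-K1 with the lowest coordinate, which is the 3′ end of this minus strand gene. Red triangles are the 7 genes described here, blue squares 19 antigen presentation genes of the lists and grey circles 95 other genes, whose median is 0.44 in mouse 2276 and whose highest point in each panel is a short RNA gene listed at 0 in the WT mice. Part of the blue squares are genes that passed the filter only through HrasG12V mice.

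Other class I heavy chains did not all follow H2-K1 and H2-D1. Of 29 listed genes, 18 passed the filter on low values, and 3 of these (16.7%, against 5.18% of all genes) had an unadjusted limma p below 0.05, all higher: H2-Q4 (log2 difference 1.41, SE 0.45), H2-M3 (1.33, SE 0.24) and H2-Q9, which was listed near 0 in the WT mice and had 0.418, 2.14 and 2.06 FPKM in mice 2276, 2278 and 2279. H2-M3, which presents formylated peptides, had 1.38, 1.31 and 0.976 FPKM in the WT mice and 2.51, 3.93 and 3.28 FPKM in the HrasG12V mice (limma, adjusted p = 0.29). The median of the 18 was 0.78, and relative to the WT mean it was -0.11 in mouse 2276, 1.19 in mouse 2278 and 1.23 in mouse 2279. Of the 18, H2-Q5, H2-Q6, H2-Q7, H2-Q9, H2-M2 and H2-T10 had a WT mean below 0.5 FPKM. They passed the filter only through HrasG12V mice, so the share and medians of this list are partly set by the filter, and nothing is read from them.

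Among the genes of that list with a mean of at least 1 FPKM the extremes were H2-Q7 and H2-T22. H2-Q7 had 0.0824 to 0.117 FPKM in the WT mice, 0.0541 in mouse 2276, and 5.60 and 6.07 in mice 2278 and 2279. H2-T22 had 3.32 to 3.89 FPKM in the WT mice and 4.81 and 4.14 in mice 2278 and 2279, but 0.556 in mouse 2276, the lowest of all 6. Under the same limit of 1 FPKM the next were H2-Q5 (1.96, SE 1.08) at the high end and Hfe, an iron regulator of class I fold, at the low end (-0.36, SE 0.56). H2-Q7 and H2-T22 share 34.9% and 44.7% of their stretches of 50 bases with others, H2-T22 mainly with H2-T10, so their levels are uncertain, and the MHC haplotype of the mice was not tested.

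Genes of peptide loading and trimming outside the 10 had a median difference of 0.07. None of the 15 tested, among them the chaperones Calr and Canx, the disulfide isomerase Pdia3 and the trimming enzyme Erap1, had an unadjusted limma p below 0.05. Of all genes 10.2% were called in either direction, so nothing is read from a count of 15 genes. Calr had 104 to 118 FPKM in the WT mice and 150, 126 and 80.1 FPKM in mice 2276, 2278 and 2279. Erap1 had 9.56 to 10.4 FPKM in the WT mice and 5.68, 11.6 and 9.62 FPKM. In both genes the groups overlapped. The highest differences of the list were those of Sec61b (0.45, SE 0.30) and Tapbpl (0.42, SE 0.27), and the lowest those of the peptidases Tpp2 (-0.30, SE 0.24) and Lnpep (-0.23, SE 0.35).

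Of 9 tested proteasome activator and assembly genes, 1 (11.1%, against 5.18% of all genes) was called higher. This was Psme2, a subunit of the interferon inducible activator, with 17.5, 19.3 and 18.0 FPKM in the WT mice and 32.8, 29.8 and 20.3 FPKM in mice 2276, 2278 and 2279 (0.56, SE 0.22). Its partner Psme1 had 25.4 to 28.4 FPKM in the WT mice and 63.3, 33.9 and 23.8 FPKM, with mouse 2279 below every WT mouse at this scaling. Like Psmb10, both were highest in mouse 2276 in the FPKM as deposited. The largest difference in this group, without a call, was that of the assembly factor Psmg4 (0.71, SE 0.35), and the lowest were those of the activators Psme4 (-0.43, SE 0.27) and Psme3 (-0.08, SE 0.16).

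Among 19 tested transcription factors of class I and interferon responses, 3 (15.8%, against 5.18% of all genes) were called, all higher (median 0.15). Irf8, a factor of myeloid and B cells, had 1.75 to 1.87 FPKM in the WT mice and 3.45, 9.21 and 9.86 FPKM in the HrasG12V mice (1.84, SE 0.40, limma, adjusted p = 0.34). Irf1, which binds class I promoters, had 7.98, 5.91 and 5.44 FPKM in the WT mice and 8.45, 9.65 and 10.2 FPKM in the HrasG12V mice (0.56, SE 0.19), and Irf7 was the other one (0.52, SE 0.19). Rfx5, a subunit of the complex that recruits Nlrc5, had 3.39 to 4.03 FPKM in the WT mice and 4.02, 4.79 and 5.79 FPKM in the HrasG12V mice. Rfx5 did not pass the test. The lowest differences were those of its partner Rfxank (-0.17, SE 0.26) and of Nfyb, a subunit that binds the Y box (-0.10, SE 0.17).

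The interferon lists held 3 higher calls each. Of 12 tested ligand, receptor and kinase genes, 3 (25.0%, against 5.18% of all genes) were higher, namely Il10rb, the feedback inhibitor Socs1 and the phosphatase Ptpn6, with a list median of 0.13. Socs1 had 1.11, 1.10 and 1.13 FPKM in the WT mice and 2.32, 1.79 and 2.29 FPKM in the HrasG12V mice (0.87, SE 0.20, limma, adjusted p = 0.35). Mouse 2276 was thus as high as the others in the FPKM as deposited, which depends on the scaling. Ptpn6, a phosphatase of blood cells, had 0.503 to 0.923 FPKM in the WT mice, 0.766 in mouse 2276, and 12.7 and 10.8 in mice 2278 and 2279. Ifng, the interferon-gamma gene, was listed at 0 in the WT mice and mouse 2276 and at 0.0509 and 0.0520 FPKM in mice 2278 and 2279, too low to enter the fit. The lowest differences of this list were those of the kinase gene Jak2 (-0.29, SE 0.32) and the receptor gene Ifngr2 (-0.25, SE 0.24).

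Of 17 tested genes of the interferon-gamma response, 3 (17.6%) were higher (Ifi47, Cxcl9 and Cd274) and 1 was lower, beside 5.18% higher and 4.99% lower of all genes, with a median of 0.38. Ifi47 had 1.09, 1.40 and 0.463 FPKM in the WT mice and 1.68, 3.98 and 5.49 FPKM in mice 2276, 2278 and 2279. The lower one was Gbp10, a guanylate binding protein, with 3.33, 4.63 and 1.57 FPKM in the WT mice and 0.419, 0.693 and 1.37 FPKM in the HrasG12V mice (-1.83, SE 0.52). Its groups did not overlap, in the direction opposite to that of the class I genes. Its relative Gbp6 (-0.75, SE 0.49) was not called, nor was Ubd, a ubiquitin-like gene of lymphoid tissue, which was at 0 to 0.216 FPKM in the WT mice, 0 in mouse 2276, and 3.32 and 6.61 in mice 2278 and 2279. Of 23 tested type I interferon response genes, 3 (13.0%, against 5.18% of all genes) were higher (Isg20, Bst2 and Zbp1) and none lower, with a median of 0.39. Bst2, tetherin, had 7.63, 9.02 and 5.85 FPKM in the WT mice and 18.7 and 14.7 FPKM in mice 2276 and 2278, while mouse 2279 was at 1.33 times the WT mean. The lowest differences were those of Ifih1 (-0.45, SE 0.29) and Cmpk2 (-0.10, SE 0.20).

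The class II pathway, which serves antigen presenting cells and presents to CD4+ T cells, had the highest share of calls among the pathway lists. Of 10 tested genes 7 (70.0%) were higher and none lower, beside 5.18% and 4.99% of all genes, with a median of 1.79. Of these 10, H2-Oa, H2-Ob and H2-DMb2 passed the filter only through HrasG12V mice. Cd74, the invariant chain, had 26.5, 23.4 and 21.9 FPKM in the WT mice and 28.7, 185 and 120 FPKM in mice 2276, 2278 and 2279 (1.85, SE 0.65). H2-Aa had 15.7, 12.7 and 14.9 FPKM in the WT mice and 15.0, 96.7 and 73.9 FPKM in the HrasG12V mice. H2-Ob (3.28, SE 1.37) and H2-Oa (3.11, SE 1.46) had the highest differences of the list and H2-DMa (1.27, SE 0.44) and the protease gene Ctss (1.5, SE 0.61) the lowest. Mouse 2276 was within the WT range for H2-Aa and just above it for Cd74. Relative to the WT mean the list's median was 0.04 in mouse 2276, 2.79 in mouse 2278 and 2.35 in mouse 2279, beside 0.42, 1.39 and 1.53 for the 10 class I genes. Ciita, the class II transactivator and relative of Nlrc5, had 0.196 to 0.219 FPKM in the WT mice, 0.157 in mouse 2276, and 3.06 and 2.13 in mice 2278 and 2279, the same split as Nlrc5.

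Over all these lists, with the 10 genes left out, 23 of 137 tested genes were called higher and 1 lower at an unadjusted limma p below 0.05, beside 5.18% and 4.99% of all genes, with a median of 0.28, and none had an adjusted p below 0.05. Part of the 137, among them H2-Q6, H2-Q7, H2-M2, H2-Oa, H2-Ob, H2-DMb2 and Ubd, had a WT mean below 0.5 FPKM. These passed the filter only through HrasG12V mice, so the counts are partly set by the filter and nothing is read from them. These 24 calls became 9 on rescaling to the same total FPKM, 12 without moderation, and 7 to 53 with 1 mouse left out (7 without WT mouse 2281, 9 without mouse 2278, 10 without WT mouse 2280, 12 without WT mouse 2277 and 53 without mouse 2276). Of the marker lists tested in the same way, those of B cells had 4 of 10 genes called higher, of T cells 5 of 11, of neutrophils 4 of 6 and of lymph node stroma 4 of 5. Most tested markers of these cells had a WT mean below 0.5 FPKM and passed the filter only through HrasG12V mice, so nothing is read from these counts. Of the other marker lists, 1 of 9 macrophage and 1 of 2 natural killer and cytotoxic cell genes were called higher, and none of 4 dendritic cell, 9 endothelial, 6 fibroblast and 9 myofibre genes. The natural killer genes tested, Klrd1 and Nkg7, had WT means of 0.073 and 0.080 FPKM and also passed the filter only through HrasG12V mice, so nothing is read from that count either. The most abundant markers were Cd79a and Cd79b of B cells (26.4 and 18.9 FPKM in mouse 2278), Lck and Cd3e of T cells (6.58 and 6.26 FPKM in that mouse) and, beside Glycam1, Ccl19 of lymph node stroma (25.3 FPKM).

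The genes whose pattern over the 6 libraries was most like that of the 10 were found by Pearson r with their mean z-score, among 12169 other genes with a mean of at least 1 FPKM. Cdc42se1 was the most alike (r = 0.998), with 10.5, 10.96 and 9.88 FPKM in the WT mice and 13.0, 15.97 and 16.8 FPKM in mice 2276, 2278 and 2279. It was followed by Ankrd12, Plvap, Tmem176b, Lpin2, Zbtb24, Grap and Rasa3 (r = 0.9903). Plvap, a protein of the openings of fenestrated endothelium, had 6.75, 9.21 and 6.40 FPKM in the WT mice and 11.2, 20.1 and 22.5 FPKM in the HrasG12V mice. An r above 0.95 was found for 152 genes, and with 6 libraries that share a few large contrasts these r are a description only.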

How the data were processed

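The authors made stranded mRNA libraries, read them as single ends, mapped them with TopHat and converted them with Cufflinks and Cuffnorm to the deposited FPKM, 1 value per symbol and library. Neither versions nor the annotation are given in the sources used here, and GRCm38 is named in the submitters' processing notes. Sums of FPKM (413020 to 814013 per library) are not depths. Low values showed no steps of whole reads (the fullest interval of ratios held 0.66% to 4.083% of low genes), so the reads behind each value are known only from the nominal depth in the study's methods, and no count model was used.

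From the deposited FPKM, log2(FPKM + 0.1) of the 13359 genes with a mean of at least 0.5 was compared between 3 HrasG12V and 3 WT mice with limma 3.58.1 in R 4.3.3 (moderated, trend over abundance, no covariate), p limit 0.05, Benjamini-Hochberg adjustment. P-values measure the spread between these mice. The fit was tested on simulated data. Positions came from GENCODE vM21 (22694 symbols matched, 930 by synonym, 373 not placed), and tables from Python 3.11.15 with pandas 2.3.3.

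The 10 genes, the lists and the tests were chosen with earlier results of these data known. Named are the 10, the 2 highest and 2 lowest of each list with a mean of at least 1 FPKM, the 3 highest and 3 lowest of the MHC interval outside the lists, the 2 most abundant markers of B cells, T cells and lymph node stroma (for other cell types the rule was applied and not all are printed), the 8 genes most like the 10, Psmb5, Psmb6, Psmb7 and Hras. Others were singled out after their values were seen. As alternatives, pseudocounts of 1 and 0.01 were used, no filter, a filter at 1 FPKM, quantile normalization, rescaling to 1 total, no moderation, a lymphocyte covariate, a narrower interval, and leaving out mice. Of the lists' members, 1 gene was fitted with the rest and is not reported here.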

Additional observations from a re-analysis of the deposited data

How the results depend on the processing

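All 10 genes stayed above 0 in every fit that tested them, and none reversed. Of 149 repeats over the 10 genes, 120 kept their side of the limit, 26 lost it and 3 passed it. For the 8 genes past the unadjusted p, the 1358 of all genes, the 19 higher in the MHC interval and the 24 called in the lists, rescaling to the same total gave 3, 712, 8 and 9. The lymphocyte covariate gave 4, 5394, 40 and 46, and leaving out mice 2278 and 2279 gave 4, 6312, 50 and 59. Both leave the comparison of mouse 2276 with the WT mice. Without moderation 11 were called in the interval and 12 in the lists, and the narrower interval from H2-K1 to H2-D1, with fewer genes, gave 12. Leaving out 1 mouse gave 5 (without WT mouse 2281) to 9 (without mouse 2276) of the 10 genes, 606 to 3979 of all genes, 7 to 38 in the interval and 7 to 53 in the lists, the lowest counts of all genes and the lists without WT mouse 2281 and the highest of each without mouse 2276. The median of the 10 genes went from 1.12 to 0.43 with the covariate and 0.42 without mice 2278 and 2279. Without those mice the ratio of Psmb8 to Psmb5 reversed to 0.876, that of Psmb9 to Psmb6 reversed to 0.665, and that of Psmb10 to Psmb7 was 1.44. The cause of the changes with scaling and moderation was not tested. No paired analysis was possible because the labels give each mouse a number of its own. Read counts per library were not at hand, so the precision of low levels, such as those of Nlrc5, is known only from the spread of 3 mice per genotype. At a filter of 1 FPKM Nlrc5 dropped out, and the median of the other 9 genes was 0.89.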

Other observations

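Short RNA genes gave the largest differences of the MHC interval. Mir6973a, which lies inside Ltb on the same strand, was listed at 0 in the WT mice and mouse 2276 and at 214 and 68.1 FPKM in mice 2278 and 2279. Mir1894 was listed at 50.1, 0 and 35.6 FPKM in mice 2276, 2278 and 2279 and at 0 in the WT mice. Snord52 was listed at 259 FPKM in mouse 2278 and at 0 in the other 5. Mir6970 had 467, 91.8 and 218 FPKM in the WT mice and 350, 0 and 156 FPKM in the HrasG12V mice, and Mir6975 was listed at 244 FPKM in WT mouse 2281 alone.

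Of 9 endothelial markers, Cdh5 and Tie1 had an unadjusted limma p below 0.05 and were lower, as 4.99% of all genes were, and none was higher. Differences of the others ran from -0.46 (Esam) to 0.03 (Cldn5). The summed FPKM of the 9 was 221 to 267 in the WT mice and 195 to 198 in the HrasG12V mice. Cdh5 had 65.1, 67.5 and 59.1 FPKM in the WT mice and 36.6, 43.1 and 41.8 FPKM in mice 2276, 2278 and 2279, so the groups did not overlap.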
